A study of Rattus norvegicus with 54 samples.

Results

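Transcripts of 8 genes that mark GABAergic interneurons, the locally projecting inhibitory neurons of the forebrain, were followed across bulk RNA sequencing libraries of the rat nucleus accumbens. The 8 are Sst, Npy, Nos1, Pvalb, Pthlh, Vip, Cck and Calb2. They were taken by gene name from the 45785 named genes of the count table, and all 8 were present and passed the filter on low counts in each fit. The animals were male and female Long Evans rats. Control libraries (FCL-VEH) came from offspring of the free-choice liquid diet condition that later received water. Libraries of prenatal alcohol exposure (PAE-VEH) came from offspring of the prenatal ethanol condition that later received water, and libraries of combined exposure (PAE-AAE) from prenatal ethanol followed by alcohol in adolescence. Adolescent brains were taken at postnatal day 42 (P42), 24 h after the final adolescent exposure, and adult brains at P90 without a challenge. The P42 groups held 9 control and 9 PAE-VEH males, and 7 control and 4 PAE-VEH females, counted as libraries. The P90 groups held 6 control and 6 PAE-AAE males, and 8 control and 5 PAE-AAE females. Prenatal and adolescent exposure come together in the adults, so their effects cannot be told apart, and age in the controls comes with the time since the last water exposure. The labels do not say that each library is from its own animal and name no litter, so p-values measure the spread between these libraries.

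The accumbens, a ventral part of the striatum, consists mostly of GABAergic spiny projection neurons, and interneurons are a small minority of its cells. Textbook accounts place a class of low-threshold-spiking interneurons there that makes somatostatin (Sst), neuropeptide Y (Npy) and nitric oxide synthase (Nos1) together. A fast-spiking class holds the calcium buffer parvalbumin (Pvalb), and Pthlh, the precursor of a parathyroid hormone-related peptide, marks a wider striatal class that includes it. Vasoactive intestinal peptide (Vip), cholecystokinin (Cck) and the calcium-binding protein calretinin (Calb2) mark further classes and are sparse in the striatum. Cck is also made by excitatory neurons of the cortex, and calretinin by neurons of the septum and thalamus. In bulk RNA, fewer cells of a type and less RNA per cell cannot be told apart.

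Promoter sequences are shown for the members of the low-threshold-spiking class and for Vip, because the cAMP response element TGACGTCA of the somatostatin promoter is the textbook example of such an element. RefSeq sequences (GRCr8) from 250 bases before to 50 bases after the gene start were held for 5 of the 8 members, namely Sst, Npy, Nos1, Pvalb and Vip. Each window was searched on both strands for TGACGTCA and for its core, TGACG, which reads as CGTCA on the opposite strand, and each full element holds the core on both strands. The full element was found in 2 members, Sst and Nos1. Over all 33469 promoters of that length, 1.83% hold it and 21.2% hold the core. The stretches below run 5′ to 3′ from 120 bases before the gene start for 140 bases, with the core of either strand in capitals. They are chr11:90461426-90461565 on the plus strand for Sst, chr12:44371818-44371957 on the minus strand for Nos1, chr1:44470360-44470499 on the plus strand for Vip and chr4:80211991-80212130 on the plus strand for Npy.
Sst: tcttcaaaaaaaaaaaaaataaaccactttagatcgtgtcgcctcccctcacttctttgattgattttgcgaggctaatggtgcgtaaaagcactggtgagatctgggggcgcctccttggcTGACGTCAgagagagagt
Nos1: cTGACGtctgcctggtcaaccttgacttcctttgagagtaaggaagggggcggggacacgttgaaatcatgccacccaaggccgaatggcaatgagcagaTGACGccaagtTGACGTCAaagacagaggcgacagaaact
Vip: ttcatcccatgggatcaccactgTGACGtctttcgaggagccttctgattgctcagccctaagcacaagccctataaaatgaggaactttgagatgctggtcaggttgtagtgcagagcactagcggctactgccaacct
Npy: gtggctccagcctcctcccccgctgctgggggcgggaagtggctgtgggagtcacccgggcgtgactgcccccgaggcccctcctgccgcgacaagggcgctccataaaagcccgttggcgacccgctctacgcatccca
With the gene start counted as 0, the full element lies at positions 2 to 9 in Sst and -9 to -2 in Nos1, where 2 more cores lie upstream. Vip holds a single core at -97 to -93, the Pvalb window holds 1 core farther upstream, and these letters are not in the Npy window. The start used for Nos1, Vip and Pvalb lies within the gene's span in the count table, so other starts of these genes are not covered. For Sst and Npy it is the first base of that span. All positions are counted from an annotated start and not from a measured start of transcription, so they do not place the Sst element downstream of such a start. A match is a description of the letters and not a measured binding site.

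Named-gene totals ran from 58.8 to 103.5 M counts per library, with a median of 72.2 M. The least abundant member, Vip, still had 66 to 1404 reads in a library, and Sst had 4693 to 19829. Spiny neuron transcripts stood at high levels in all libraries: in CPM (counts of a gene per 1 M counts of its library), Ppp1r1b, the dopamine-regulated phosphatase inhibitor DARPP-32, ranged from 570.3 to 2781, and the dopamine receptor Drd1 from 115.5 to 471.6 CPM. Levels of Slc17a7, the vesicular glutamate transporter of cortical excitatory neurons, ranged from 4.15 to 1185 CPM. Transthyretin (Ttr), the leading transcript of the choroid plexus, ranged from 3.07 to 3761 CPM. By a score over 11 cortical excitatory markers, 2 libraries lay more than 3 median absolute deviations above the median. These were replicate 6 of the PAE-VEH males at P42 and replicate 2 of the control females at P90, and replicate 4 of the PAE-VEH females at P42 lay just below with a score of 2.34 against a limit of 2.43. By a score over 10 choroid plexus markers, 5 libraries stood out, among them replicates 4 and 6 of the control males at P90. In 3 libraries the sex-linked transcripts went against the label: replicate 8 of the control males at P42 and replicate 5 of the PAE-VEH males at P42 had Xist at 712.1 and 647.4 CPM and Kdm5d at 0 and 0.0673 CPM, and replicate 5 of the control females at P42 had Xist at 0.764 and Kdm5d at 44.2 CPM. They are kept under their labels. Replicate 6 of the control males at P90 and replicate 5 of the PAE-AAE males at P90 held both transcripts, with Xist at 57.6 and 30.2 CPM beside Kdm5d at 30.9 and 41.9 CPM. Less Xist stood beside Kdm5d in other males. It was 9.41 and 4.20 CPM in replicates 4 and 5 of the control males at P90. At P42 it was 6.98 CPM in replicate 6 of the PAE-VEH males and 4.28 CPM in replicate 2 of the control males. For several results that rest on these libraries, values without them are given.

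Per length of transcript, somatostatin was the leading interneuron transcript. On the deposited FPKM scale the median level of Sst over the 54 libraries was 157, rank 250 of 45785 genes. Npy followed at a median of 66.5, and Calb2 at 24.0. Cck at 11.3, Pvalb at 10.5 and Nos1 at 9.83 lay close together, Pthlh had 2.76 and Vip 1.33. Sst exceeded Npy in 54 of 54 libraries, Npy exceeded Calb2 in 53, Nos1 exceeded Pthlh in 54 and Pthlh exceeded Vip in 45. The order in the middle did not hold from library to library: Calb2 exceeded Cck in 36 of 54 libraries, Cck exceeded Pvalb in 32 and Pvalb exceeded Nos1 in 31. The FPKM ratio of Npy to Sst lay between 0.260 and 0.550, whereas that of Cck to Sst ran from 0.0351 to 0.769.

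The members fell apart by how much they varied between libraries of the same group. Nos1 had a within-group SD of 0.22 on the log2 CPM scale, the same as the median of 0.22 over 16334 genes with a mean of at least 1 CPM. Sst had 0.29, Npy 0.37 and Pthlh 0.43. Calb2 reached 0.67, Vip 0.92, Pvalb 1.12 and Cck 1.36. For Cck, 99.04% of those genes had a smaller SD, and for Pvalb 97.9%. The ratio of the highest to the lowest library was 2.32 for Nos1 and 2.98 for Sst, against 23.2 for Vip, 40.9 for Cck and 42.2 for Pvalb.

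**Figure D1:**
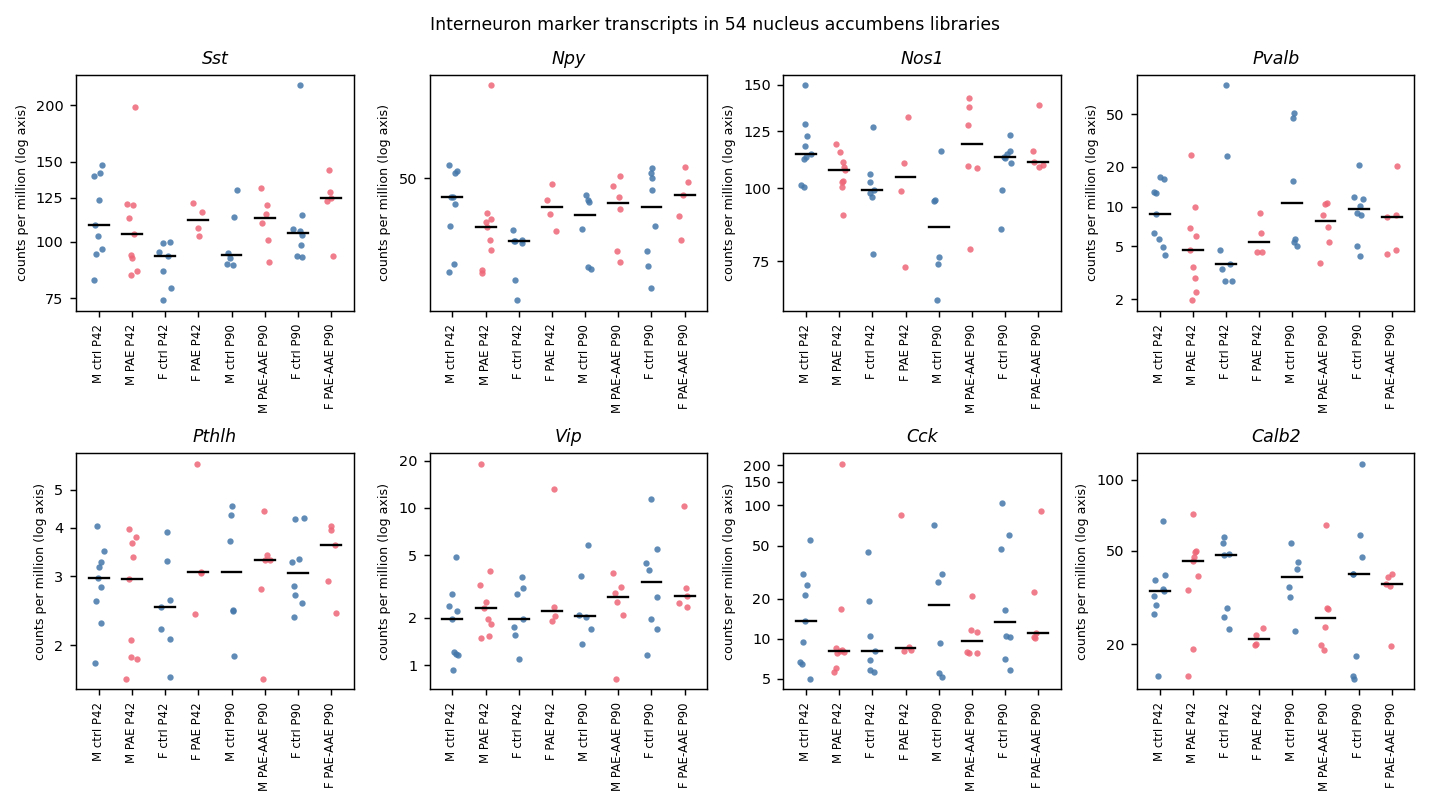
Level of each member in CPM (log axis) in the 8 groups, with 1 point per library, blue for control and red for exposed groups, and a line at the group median (M, males; F, females). Ranges of groups with neighbouring medians overlapped for every member, and single libraries reached 206 CPM for Cck, 82.6 CPM for Pvalb and 19.1 CPM for Vip.

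When the 8 groups were ordered by their median CPM for each member, the ranges of neighbouring groups overlapped in 56 of 56 neighbouring pairs. Sst, whose peptide inhibits neurons and hormone release, had group medians between 93.1 CPM in control females at P42 and 124.6 CPM in PAE-AAE females at P90. Most Sst libraries stood between 74.2 and 147 CPM, apart from replicate 1 of the control females at P90 at 221 and replicate 6 of the PAE-VEH males at P42 at 198. Npy, a peptide that damps transmitter release, had the same lowest and highest groups, with medians of 33.3 and 44.9 CPM. Its highest single library was again replicate 6 of the PAE-VEH males at P42, at 91.1 CPM. Nos1, which makes the gaseous messenger nitric oxide, ranged over group medians from 85.7 CPM in control males at P90 to 118.7 CPM in PAE-AAE males at P90. Both ends of the Nos1 order were thus adult males.

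Pvalb, which shapes calcium signals in fast-spiking cells, was low in most libraries and very high in a few. In control females at P42 it was 82.6 CPM in replicate 1, 24.3 in replicate 5, labelled female but with sex-linked transcripts of the male pattern, and between 2.72 and 4.71 in the other 5 libraries. Among control males at P90, replicates 4 and 6 had 47.1 and 51.3 CPM, replicate 5 had 15.6, and the other 3 lay between 5.08 and 5.65. The group SD of Pvalb therefore exceeded the mean in control females at P42 (17.7 ± 29.6 CPM, SD, n = 7) and equalled it in control males at P90 (21.7 ± 21.7 CPM, SD, n = 6). Pthlh stayed between 1.64 and 5.84 CPM in all libraries, with group medians from 2.50 CPM in control females at P42 to 3.62 CPM in PAE-AAE females at P90.

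Vip and Cck, peptides that other brain regions use widely, had their highest values in the same libraries. Replicate 6 of the PAE-VEH males at P42 had 19.1 CPM of Vip and 206 CPM of Cck, while the other 8 libraries of its group had 1.5 to 4.0 and 5.6 to 16.9. Replicate 4 of the PAE-VEH females at P42 had 13.2 CPM of Vip and 85.3 of Cck, against 1.91 to 2.35 and 8.08 to 8.74 in the other 3. Replicate 3 of the PAE-AAE females at P90 had 10.2 CPM of Vip and 90.3 of Cck, and replicate 2 of the control females at P90 had 11.3 and 105.01. These 4 libraries were also the 4 with the highest cortical excitatory scores. Calb2 stood at 19.1, 20.02, 19.5 and 17.9 CPM in them. That was the lowest of its group in replicate 3 of the PAE-AAE females, low but not lowest in replicate 6 of the PAE-VEH males and replicate 2 of the control females, and within the narrow range of the group in the PAE-VEH females. Group medians of Calb2 ran from 20.9 CPM in PAE-VEH females at P42 to 47.97 CPM in control females at P42, and its highest library was replicate 1 of the control females at P90 at 117.3 CPM.

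Nos1 was the single member to pass the threshold in any of 13 comparisons, and it did so for age in control males. In control males at P42 its level was 149.7, 117.9, 114.4, 128.7, 112.2, 100.6, 112.8, 101.04 and 122.4 CPM in replicates 1 to 9. At P90 it was 95.2, 95.5, 76.3, 74.4, 115.4 and 64.4 CPM in replicates 1 to 6. Of the 6 adult libraries 5 lay below all 9 adolescent ones, and replicate 5 lay within their range. Nos1 fell by 0.44 on the log2 scale (SE 0.11, from 117.7 ± 15.01 to 86.9 ± 18.6 CPM, SD), with an adjusted p of 0.0307 in edgeR's quasi-likelihood test. That is 1 of 8 members, beside 610 of 24065 genes (2.53%) called in either direction and 145 (0.603%) called lower.

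The Nos1 call rested on libraries that also differed in choroid plexus transcripts. The 3 adult males with the lowest Nos1, replicates 3, 4 and 6, had the 3 highest choroid plexus scores of their group, at 1.71, 2.37 and 3.20. All 10 choroid plexus markers had a positive age difference in males, none past the threshold, with a median of 1.02 on the log2 scale. Their summed level ranged from 22.6 to 1870 CPM in control males at P42 and from 72.7 to 3847 CPM at P90, and none of the 10 was at 0 in either group. The 6 ependymal markers tested also had positive age differences in males, with a median of 0.63 and sums of 86.5 to 358.6 CPM at P42 and 80.6 to 698.4 CPM at P90. Other lists moved as well. All 7 astrocyte and all 6 microglia markers had positive values (medians of 0.17 and 0.32), with 1 of each past the threshold. Of 11 cortical excitatory markers 4 had positive values (median -0.17), 1 past the threshold, and of 17 medium spiny neuron markers 2 did (median -0.12). The part of these lists in the Nos1 value was not tested. Without the libraries rich in choroid plexus transcripts the Nos1 difference was -0.31 (adjusted p = 0.377, edgeR), and with the choroid plexus score as a covariate it was -0.37 (adjusted p = 0.333, edgeR). The same steps took the number of genes called from 610 to 24 and to 30. Leaving out single control males, the call held in 11 of 15 fits and was lost without replicate 4 at P42 (adjusted p = 0.0513, edgeR) or without replicate 3, 4 or 6 at P90 (0.0720, 0.0958 and 0.128). The direction was negative in all of these fits. Replicate 6 at P90 is the control library that held Xist at 57.6 CPM beside Kdm5d, and replicate 4 at P90 held Xist at 9.41 CPM. Without the 3 libraries whose sex-linked transcripts went against the label the Nos1 difference was -0.45 (adjusted p = 0.0399, edgeR).

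**Figure D2:**
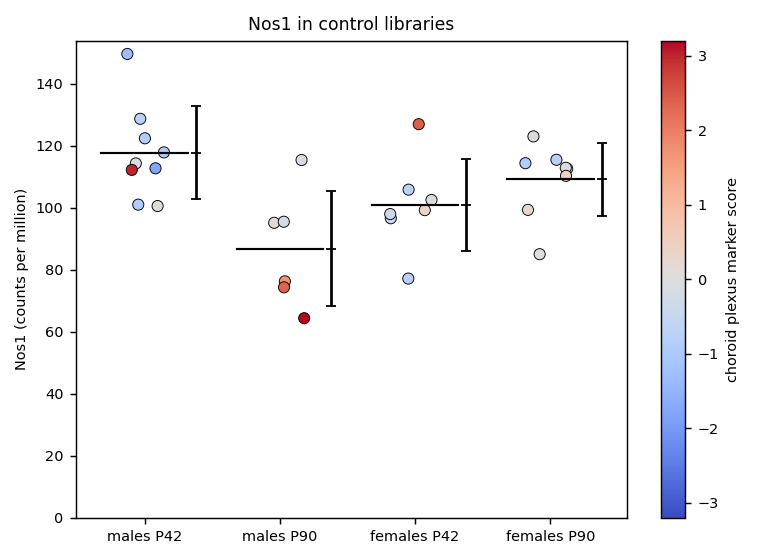
Nos1 in CPM in the control libraries by sex and age, with 1 point per library coloured by its choroid plexus marker score, a line at the group mean and an error bar of 1 SD beside it. The 3 lowest adult males, at 64.4, 74.4 and 76.3 CPM, have scores of 3.20, 2.37 and 1.71, and the highest-scoring P42 libraries have 112.2 CPM in males and 127.01 CPM in females.

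In control females Nos1 did not pass for age. Their Nos1 was 100.9 ± 14.7 CPM (SD, n = 7) at P42 and 109.2 ± 11.7 CPM (SD, n = 8) at P90, a log2 difference of 0.11 (SE 0.11; adjusted p = 0.620, edgeR). The female-minus-male difference in the age effect of Nos1 was 0.55 (SE 0.15, unadjusted p = 0.00124), and its adjusted p was 0.470 over all genes in edgeR. In the same contrast 0 of 24065 genes (0%) passed in edgeR or DESeq2, and 2045 had an unadjusted p under 0.05, among them 4 members, Nos1, Sst, Npy and Pvalb. Sst and Npy had age differences of -0.18 and -0.19 in males and 0.39 and 0.38 in females. The sex difference in these effects was 0.57 for both (adjusted p = 0.506 and 0.547, edgeR). Female Sst at P90 includes the library at 221 CPM, replicate 1. Without it the female age difference of Sst was 0.19 and the sex difference in the effect was 0.37. The 6 ependymal markers tested all had negative age differences in females, with a median of -0.81, 3 of them at an unadjusted p under 0.05, and their sums ran from 212 to 517.5 CPM at P42 and from 57.7 to 441.7 CPM at P90. Their part in the Sst and Npy values was not tested.

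In control females, 0 of 8 members passed for age, beside 0.42% of 24065 genes called in edgeR. By unadjusted p, 3679 genes were under 0.05, among them 2 members, Sst and Npy. DESeq2 called 350 genes and 0 members. Cck and Vip had log2 differences of 1.18 (SE 0.67) and 0.85 (SE 0.42). Without replicate 2 at P90, the cortex-rich library, they were 0.63 and 0.43, and without replicate 3 at P42 Cck was 1.80. With the cortical score as a covariate they were 0.18 and 0.26. The cortical excitatory markers stood higher in 10 of 11 cases, with a median of 0.997, and their summed level ranged from 57.9 to 318 CPM at P42 and from 60.4 to 857 CPM at P90, with none at 0. Pvalb had -0.80 (SE 0.64), and without replicate 1 at P42, the library at 82.6 CPM, this turned to 0.55.

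Between the sexes in controls, 0 of 8 members passed in edgeR or DESeq2 at either age. At P42, 0 of 24065 genes (0%) passed in edgeR and 7 in DESeq2, with 1464 at an unadjusted p under 0.05. There, 3 members had an unadjusted p under 0.05, all with lower values in females: Npy at -0.45, Sst at -0.36 and Nos1 at -0.22 (adjusted p = 0.737, 0.770 and 0.809, edgeR). The 6 ependymal markers tested all had higher values in the same females, with a median of 0.78 and 3 at an unadjusted p under 0.05, and their sums ran from 212 to 517.5 CPM in females and from 86.5 to 358.6 CPM in males, with none at 0. Their part in the 3 members' values was not tested. Npy was 31.0 ± 4.79 CPM (SD, n = 7) in females and 42.4 ± 9.89 CPM (SD, n = 9) in males, and all 7 females lay below the male median. Without the 3 libraries whose sex-linked transcripts went against the label the values were -0.46, -0.39 and -0.24, none past the threshold. At P90, 12 genes (0.0499%) passed. Nos1 had a log2 difference of 0.33 there, with the higher value in females (unadjusted p = 0.00679, adjusted p = 0.818, edgeR). That contrast uses the same adult control males as the age comparison and is no separate observation.

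Prenatal exposure at P42 left 0 of 8 members past the threshold in males, in females, over both sexes and in the difference between the sexes, by edgeR and by DESeq2. In each of these comparisons 0 of 24741 genes (0%) passed in edgeR, while DESeq2 called 17, 57, 21 and 62 genes. At an unadjusted p under 0.05 there were 2217 genes and 1 member, Vip, in males, and 2786 genes and 1 member, Calb2, in females. The median log2 difference over the members was -0.05 in males and 0.37 in females, beside 0.01 and -0.03 over all genes tested.

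Calb2 had its largest exposure difference in adolescent females. Its levels in the 4 exposed libraries were 21.8, 23.4, 19.8 and 20.02 CPM. In the 7 controls they were 48.2, 28.5, 23.3, 26.0, 47.97, 53.7 and 57.0 CPM. Of the exposed libraries 3 lay below all controls and replicate 2 lay just above the lowest control, and the coefficient of variation was 7.98% in the exposed group. The log2 difference was -0.94 (SE 0.34, 21.3 ± 1.70 against 40.7 ± 14.2 CPM, SD), with an unadjusted p of 0.00958 and an adjusted p of 0.288 (edgeR), and it did not pass. In males the value was 0.23, and the female-minus-male difference was -1.17 (SE 0.42; adjusted p = 0.337, edgeR). Without the libraries whose sex-linked transcripts went against the label the female value was -0.90. The septal and pallidal markers had negative values in 8 of 9 cases in the same females, with a median of -0.87. Their summed level ranged from 127.7 to 170.3 CPM in the exposed females and from 78.9 to 341.1 CPM in the controls, with none at 0. Other lists moved in these females as well. All 17 medium spiny neuron markers had positive values, with a median of 0.43 and 12 at an unadjusted p under 0.05, and their sums ran from 9578 to 12709 CPM in the exposed females and from 6511 to 11129 CPM in the controls. All 10 choroid plexus markers had negative values, with a median of -1.02, and so had the 6 ependymal markers tested, with a median of -0.69; their sums ran from 61.2 to 636.2 against 48.4 to 1482 CPM and from 69.6 to 313.9 against 212 to 517.5 CPM. None of these markers passed the threshold or was at 0 in either group. Their part in the Calb2 value, and in those of Sst, Npy and Pthlh in the same females, was not tested.

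Somatostatin was the only member whose exposed and control libraries did not overlap in adolescent females. It was 103.06, 107.3, 116.1 and 121.4 CPM in the exposed libraries and 93.1, 74.2, 95.02, 79.1, 99.4, 86.1 and 99.8 CPM in the controls. Such a separation in the upward direction was found for 525 of 24741 genes (2.12%), and in either direction for 810 (3.27%). The Sst log2 difference was 0.32 (SE 0.17; adjusted p = 0.495, edgeR). Npy had 0.42 (SE 0.24), with 3 of 4 exposed libraries above all controls, and Pthlh had 0.47 (SE 0.27). Neither passed, and without replicate 2 of the exposed females, the library with the highest Pthlh, the Pthlh value was 0.12. The ependymal and spiny neuron markers that moved in these females are given above. Pvalb had -1.55 (SE 0.82), although all 4 exposed libraries lay above the control median of 3.71 CPM, and the control group holds the library at 82.6 CPM. Without that library, replicate 1, the Pvalb value was -0.18.

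Vip and Cck had positive exposure values in both sexes at P42. For Vip the log2 difference was 1.03 (SE 0.48) in males and 1.08 (SE 0.61) in females, and for Cck it was 0.67 (SE 0.71) and 0.92 (SE 0.92). These values rested on 1 library in each sex. Without the 2 libraries rich in cortical transcripts, which removes replicate 6 of the exposed males, Vip in males was 0.18 and Cck was -1.16. Without replicate 4 of the exposed females, Vip was -0.11 and Cck -0.79. With the cortical score as a covariate in place of leaving libraries out, Vip in males stood at 1.08 (SE 0.18) with an adjusted p of 0.0510 (edgeR), just outside the threshold. The 11 cortical markers summed to 56.4 to 1557 CPM in exposed males and 60.9 to 431.9 CPM in control males, with none at 0.

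Combined prenatal and adolescent exposure at P90 also left 0 of 8 members past the threshold in males, in females, over both sexes and in the sex difference, by edgeR and DESeq2. Of 24018 genes, 0 (0%) passed in edgeR in each sex and in the difference, and 1 (0.00416%) over both sexes. DESeq2 called 2 genes in males, 8 in females, 5 over both sexes and 0 in the difference. At an unadjusted p under 0.05 were 2100 genes and 2 members, Nos1 and Pvalb, in males, and 1015 genes and 0 members in females.

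In exposed adult males Nos1 was 117.4 ± 23.6 CPM (SD, n = 6) against 86.9 ± 18.6 CPM (SD, n = 6) in controls, a log2 difference of 0.43 (SE 0.13, unadjusted p = 0.00326, adjusted p = 0.552, edgeR). With the choroid plexus score as a covariate it was 0.22, and without replicate 6 of the controls, which held both Xist and Kdm5d, it was 0.36. All 10 choroid plexus markers had negative values in this comparison, with a median of -0.81, none past the threshold. The astrocyte, microglia, oligodendrocyte and ependymal markers tested were all negative as well, and the endothelial markers were all positive, none past the threshold. The part of these lists in the Nos1 value was not tested. Pvalb was 7.66 ± 2.75 CPM in exposed males and 21.7 ± 21.7 CPM in controls (SD), and all 6 exposed libraries lay below the control median. Its log2 difference was -1.50 (SE 0.53, adjusted p = 0.552, edgeR). It turned to 0.07 without the libraries rich in choroid plexus transcripts, which include the 2 control males with 47.1 and 51.3 CPM. Without replicate 6 of the controls alone the Pvalb value was -1.05. Cck had -1.14 (SE 0.73), and -0.46 without replicate 1 of the controls. The controls of this comparison are the adult males of the age comparison, so a low Nos1 and a high Pvalb in them enter both. The age difference of Pvalb in males, 1.14 (SE 0.64), likewise turned to -0.36 without the libraries rich in choroid plexus transcripts. Over the 54 libraries, centred on group means, Pvalb had r = 0.02 and rho = 0.04 with the choroid plexus score (adjusted permutation p = 0.917 and 0.831). The library with the highest Pvalb, replicate 1 of the control females at P42, had a score of -0.44. The part of choroid plexus transcripts in the Pvalb values was not tested. In exposed adult females the 8 members ranged from -0.37 for Calb2 to 0.13 for Npy, and Nos1 had 0.10 (SE 0.13).

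**Figure D3:**
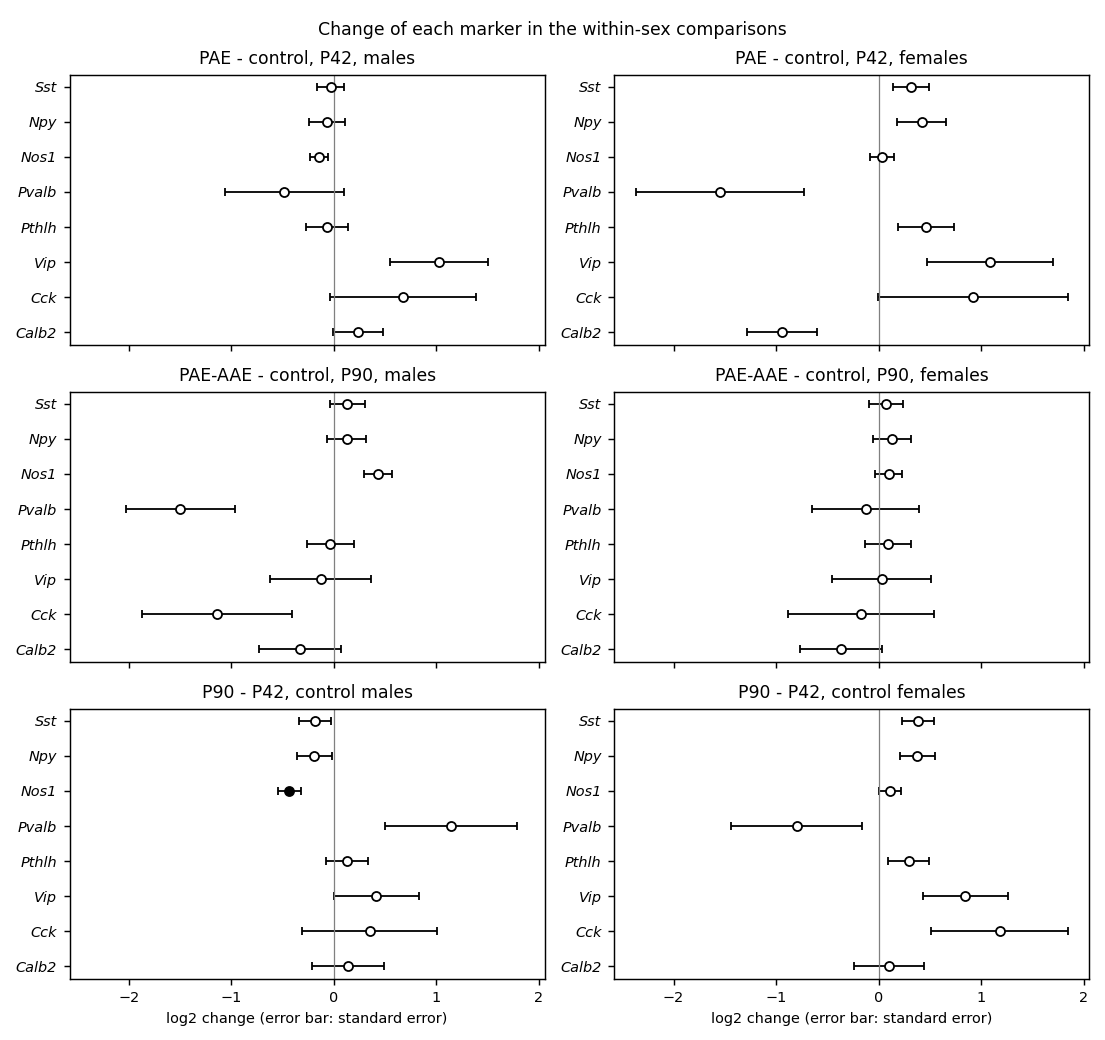
Log2 change of each member with its standard error in the 6 comparisons made within a sex; a filled point marks an adjusted p under 0.05 in edgeR. The single filled point is Nos1 at -0.44 for age in control males, and Pvalb, Vip and Cck carry the widest errors.

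Genes around the members were read from 3 lists. Of 21 receptors of the peptides and targets of nitric oxide, 25 other interneuron identity genes and 6 genes of GABA synthesis and transport, 0 passed the threshold in edgeR in any of the 13 comparisons. Unadjusted p lay under 0.05 for 0 to 3, 0 to 5 and 0 to 2 of them in a comparison, beside 784 to 4245 of all genes tested. DESeq2 called 1, Gucy1a2 for age in control males (-0.44, adjusted p = 0.0442), where it called 1176 genes. In control males by age, 4245 of 24065 genes had an unadjusted p under 0.05. Among them were 2 of the 21 receptor and nitric oxide genes, 1 of the 25 identity genes and 0 of the 6 GABA genes. The 2 were Gucy1a2, a subunit of the nitric oxide receptor guanylyl cyclase, at -0.43 (SE 0.14), and Nos1ap, an adaptor that binds neuronal nitric oxide synthase, at -0.32 (SE 0.10), each with an adjusted p of 0.101 (edgeR). The third was Reln, the secreted matrix protein reelin, at -0.44 (SE 0.17). In the age comparison in females, all 6 GABA genes had positive values, with a median of 0.15 beside 0.00 over all genes; Gad1 had 0.17 (SE 0.07) and Abat, which breaks GABA down, 0.17 (SE 0.07), with adjusted p = 0.273 and 0.271 in edgeR. In exposed females at P42, Sox6, a transcription factor of interneurons from the medial ganglionic eminence, had -0.36 (SE 0.10; adjusted p = 0.216, edgeR). Gucy1b1, another subunit of guanylyl cyclase, had 0.34 (SE 0.12) there, with an adjusted p of 0.267 in edgeR.

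Several members varied together between libraries of the same group. Over the 54 libraries, with log2 CPM centred on each group's mean, 14 of 28 pairs had a Benjamini-Hochberg adjusted p under 0.05 for Pearson's r by permutation, 10 positive and 4 negative. For 11 of the 28 pairs Spearman's rho passed as well. How many pairs of other genes would pass was not tested, so these counts do not set the members apart. Among 14452 genes ranked by r, Pvalb ranked 2011 and Cck 2791 for Sst, and Pvalb ranked 2862 for Npy, although these pairs passed. Other passing pairs were closer: Npy ranked 14 for Sst, and Cck ranked 11 for Vip. Vip and Cck had the highest correlation (r = 0.87, rho = 0.79, adjusted permutation p = 7e-05 and 9.33e-05), and r was 0.82 without the 2 libraries farthest from the median. Sst and Npy followed (r = 0.72, rho = 0.69, adjusted permutation p = 7e-05 and 9.33e-05), with r = 0.64 without the 2 farthest. Npy went with Cck (r = 0.69, rho = 0.62; 0.58 without the 2 farthest) and with Vip (r = 0.64, rho = 0.55; 0.50 without them) as well. The raw permutation p of 1e-05 for r in these 4 pairs is the smallest that 100000 permutations can give. Without the 2 libraries rich in cortical transcripts 11 pairs passed.

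Nos1, the third marker of the low-threshold-spiking class, had lower correlations with the other two. It correlated with Sst at r = 0.26 (rho = 0.30, adjusted permutation p = 0.0626 and 0.0705) and with Npy at r = 0.24 (rho = 0.22, adjusted permutation p = 0.104 and 0.190), and none of its 7 pairs passed. For Nos1 and Sst, r was 0.44 without the 2 farthest libraries. Pvalb had r = 0.45 with Sst and 0.41 with Npy. Pvalb, of the fast-spiking class, and Pthlh, of the wider class that includes it, had r = 0.01 (rho = -0.0016, adjusted permutation p = 0.966 and 0.991). The 4 negative pairs all involved Calb2, with Cck at r = -0.56, Npy at -0.46, Vip at -0.43 and Pthlh at -0.35.

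**Figure D4:**
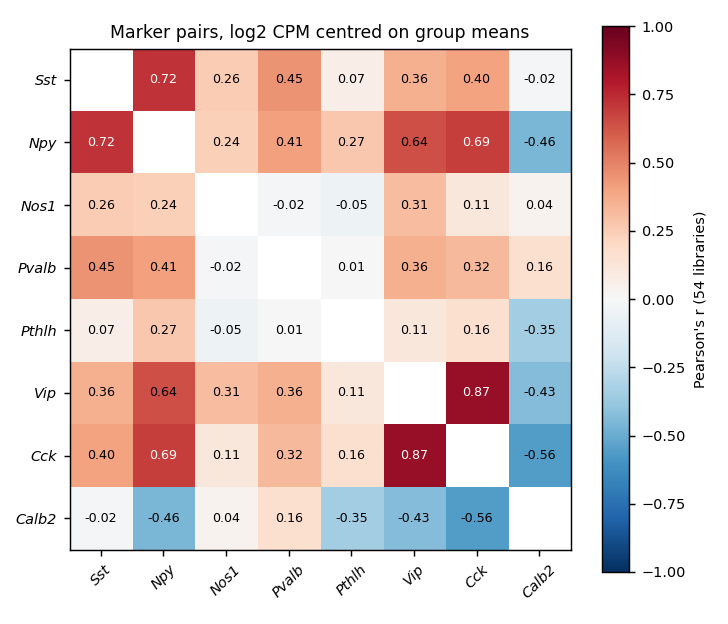
Pearson's r between each pair of members over the 54 libraries, from log2 CPM centred on group means; red is positive and blue negative. The block of Sst, Npy, Vip and Cck is positive throughout, up to 0.87, and the lowest value, -0.56, is that of Calb2 with Cck.

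The same libraries were set against scores of neighbouring tissues, as the mean centred log2 level of a marker list that holds none of the members, in 40 relations adjusted together. Cck followed the cortical excitatory score most closely (r = 0.95, rho = 0.87, adjusted permutation p = 8e-05 and 0.0001; r = 0.93 without the 2 farthest libraries). Vip did likewise (r = 0.91, rho = 0.87, adjusted permutation p = 8e-05 and 0.0001; 0.88 without them), and Npy to a lesser degree (r = 0.64, rho = 0.58, adjusted permutation p = 0.000114 and 0.000311; 0.53 without them). Calb2 followed the septal and pallidal score (r = 0.81, rho = 0.81, adjusted permutation p = 8e-05 and 0.0001; 0.77 without them) and ran against the spiny neuron score (r = -0.70, rho = -0.54, adjusted permutation p = 8e-05 and 0.00102; -0.59 without them). Pthlh alone had a positive relation past the threshold with the spiny neuron score by r (r = 0.56, rho = 0.55, adjusted permutation p = 0.000133 and 0.000286; 0.50 without them). The ependymal score had negative relations past the threshold by r with 6 members, Sst (r = -0.65, rho = -0.55), Npy (-0.63 and -0.54), Vip (-0.56 and -0.40), Cck (-0.54 and -0.42), Pvalb (-0.54 and -0.52) and Nos1 (-0.32 and -0.21). Their adjusted permutation p ran from 8e-05 to 0.0467 for r and from 0.000286 to 0.227 for rho. By rho all of these but Nos1 passed, and without the 2 farthest libraries r was -0.31 to -0.53 over the 6. Nos1 had a negative relation with the choroid plexus score (r = -0.38, rho = -0.36, adjusted permutation p = 0.0391 and 0.0306, and r = -0.27 without the 2 farthest). Sst had one as well (r = -0.31, rho = -0.38, adjusted permutation p = 0.0330 and 0.0174, and r = -0.18 without them). Past the threshold by r and rho, the septal and pallidal score ran against Npy (r = -0.59), Cck (-0.55), Vip (-0.45) and Pthlh (-0.41). Calb2 ran against the cortical score (r = -0.52) and Sst went with that score (0.39), also past the threshold by both. The libraries differ in depth as well, and these relations describe libraries, not cells.

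**Figure D5:**
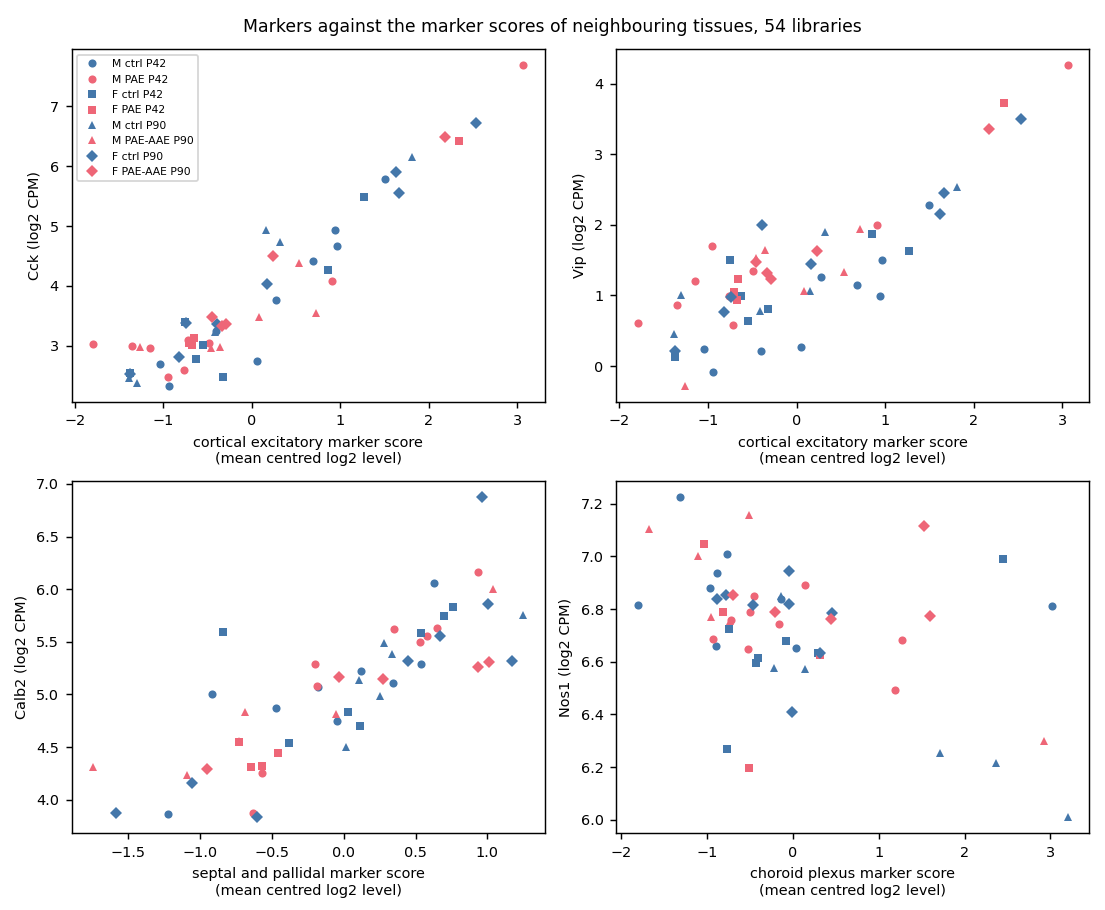
Log2 CPM of Cck, Vip, Calb2 and Nos1 against the marker score named on each horizontal axis, with 1 point per library, blue for control and red for exposed groups and 1 symbol per sex and age. Cck and Vip rise along the cortical score (r = 0.95 and 0.91 within groups), Calb2 rises along the septal and pallidal score (0.81), and Nos1 is scattered along the choroid plexus score (-0.38).

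The genes most like each member were ranked by Pearson's r of group-centred log2 CPM over the 54 libraries, among 14452 genes, as a description without a test. Cck was most like Slc17a7 (r = 0.93), Rtn4rl2, Neurod2, Vxn and Rtn4r, and Vip was most like Nrn1 (r = 0.90), Nptxr, Slc17a7, Tbr1 and Slc30a3. Slc17a7, Neurod2 and Tbr1 are markers of cortical excitatory neurons and belong to the cortical list. Calb2 was most like Gpx3 (r = 0.89), Pnoc, Amotl1, Clcn5 and Resp18. For Pvalb the 5 were Pcbp4 (r = 0.90), Shisa4, Kif5a, Slc48a1 and Zbtb47. Npy had Ttc9b (r = 0.84), Rtn2, Kcnmb4, Limd2 and Mpped1, and Sst had Tomm34 (r = 0.78), Fam43b, Fkbp1b, Npdc1 and Atp6v0c. Nos1 was most like Synj1 (r = 0.77), a synaptic phosphatase, then Plxna4, Tbc1d24, Prrc2b and Astn1. Pthlh was most like Crabp1 (r = 0.70), Tango6, Kit, Lpl and Hipk4, where Kit is a receptor listed among the interneuron identity genes. Among all genes Npy ranked 14 for Sst, Cck ranked 11 for Vip and Vip ranked 18 for Cck. Nos1 ranked 4963 for Sst.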

How the data were processed

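Bulk RNA of the nucleus accumbens was sequenced in 54 libraries, and groups were taken from the sample titles. The authors deposited raw read counts per gene and FPKM values in 1 table; the counts were tested and the FPKM values served only to compare levels between genes. Per the submitters' processing notes fastp and HISAT2 2.0.5 were used; for counter, annotation and build, nothing is given in the sources used here. Start and end of 45780 of 45785 named genes matched GRCr8. Per the labels, the kit kept no strand, so a gene's reads mix with those of an antisense partner, and 1 batch date covers all libraries. The 720 rows without a name, 0.271% to 0.412% of a library's counts, were left out.

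CPM used TMM library sizes over 54 libraries. Tests were edgeR 4.0.16 quasi-likelihood F tests, two-sided, in R 4.3.3, with TMM, the default filter, and Benjamini-Hochberg adjustment over all genes tested (threshold 0.05). There were 3 fits with group means: 29 adolescent, 25 adult and 30 control libraries, giving 13 comparisons. The fit code was tested on simulated data. Alternatives were RLE size factors, no filter, DESeq2 1.42.0, 1 fit of all libraries, leaving out libraries (each in turn, cortex-rich, against the sex label), a cortical covariate, and, added after seeing the data, both choroid plexus alternatives. Named genes in a list are up to 4 past the threshold or, failing that, up to 2 of lowest p; for each member the 5 most correlated genes are named. Members and lists were chosen with earlier results of these data known. Correlations used 100000 permutations.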

Additional observations from a re-analysis of the deposited data

Results flagged for a closer look

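Of 64 sets formed by a member and a group, 11 held a library set apart from the rest of its group by Dixon's criterion on log2 CPM, where chance gives about 3.2. Replicate 6 of the PAE-VEH males at P42 was the highest for 4 members, with 198 CPM of Sst, 91.1 of Npy, 19.1 of Vip and 206 of Cck; the other 8 libraries had 84.4 to 121, 27.0 to 39.8, 1.5 to 4.0 and 5.6 to 16.9. Replicate 4 of the PAE-VEH females at P42 was the highest for Vip at 13.2 CPM and for Cck at 85.3 CPM. Replicate 3 of the PAE-AAE females at P90 was the highest for Vip at 10.2 CPM and the lowest for Calb2 at 19.5 CPM. In the same group replicate 2 was the highest for Nos1 at 139 CPM, against 108.6 to 115.5 in the others. Replicate 1 of the control females at P90 was the highest for Sst at 221 CPM, against 92.7 to 114.3. Replicate 3 of the PAE-AAE males at P90 was the highest for Calb2 at 63.9 CPM, against 18.8 to 28.4.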

How the results depend on the processing

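No paired analysis was possible because the labels give no replicate number, litter or pair, and the numbers used here only name libraries. The number of members past the threshold for age in control males was 1 and became 0 without the libraries rich in choroid plexus transcripts and 0 with the choroid plexus score as a covariate, both added after seeing the data; leaving out 1 library each gave 0 to 1. In the other 12 comparisons it was 0 under all alternatives run. The cause of the differences was not tested. Of the log2 differences of 8 members in 13 comparisons, 34 changed sign without 1 library and 26 under another alternative; of the 53 that were at least as large as their SE, 5 did so in each case. Values that changed sign included Cck for exposure at P42 in males, 0.67, which was -1.16 without cortex-rich libraries and -1.16 to 1.06 over single left-out libraries; Pvalb for exposure at P90 in males, -1.50, which was 0.073 without choroid-rich libraries; Pvalb for age in males, 1.14, which was -0.36; and Pvalb for sex at P90, -1.09, which was 0.35. Leaving out 1 library each gave -0.109 to 1.37 for Vip (1.08) and -0.786 to 1.55 for Cck (0.92) under exposure at P42 in females, -0.501 to 0.030 for Calb2 under exposure at P90 in females (-0.37), -0.300 to 0.737 for Cck with age in males (0.35), and -1.04 to 0.554 for Pvalb with age in females (-0.80). Pvalb without replicate 1 of the control females at P42 was -0.50 for sex at P42 (0.85) and 0.30 for the sex difference of exposure at P42 (-1.06), and Cck for exposure at P42 over both sexes (0.79) was -0.12 without replicate 6 of the PAE-VEH males. Pvalb for the sex difference of exposure at P90 (1.37) was -0.20 without choroid-rich libraries and -0.10 with the choroid plexus covariate. For a part of these differences, chosen for the text, 354 of 360 values under the other alternatives kept direction and side. Of the rest, 4 changed direction and 2 kept it but no longer passed the threshold. That part leaves out some values named above, so the 26 sign changes over all members and comparisons are the fuller count. Calls over all genes differed by more than 1.5 times in DESeq2 for age, with 1176 in males against 610 and 350 in females, and fell to 24 and 30 in males in the choroid plexus alternatives. Pairs of members past the threshold were 14, with 12, 11 and 16 in the alternatives. Depth limits Vip most, at 66 reads in its lowest library, and groups of 4 to 9 limit what a test can call.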
